A study of Mus musculus with 4 samples.

Results

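The mRNAs of 9 enzymes and enzyme subunits of the tricarboxylic acid (TCA) cycle were examined in splenic polymorphonuclear myeloid-derived suppressor cells (PMN-MDSCs) of neonatal mice. They were chosen by name, as the cycle genes left when the lipoylated dehydrogenase complexes and succinate dehydrogenase are set aside: *Cs*, *Idh3a*, *Idh3b*, *Idh3g*, *Suclg1*, *Suclg2*, *Sucla2*, *Fh1* and *Mdh2*. All 9 were found among the 28585 genes listed in each library.

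PMN-MDSCs are neutrophil-like cells that restrain T cells. They were sorted as CD11b+Ly6Clo/-Ly6G+ cells from spleens on postnatal day 7, and 300000 cells went into each library. The 2 Dhps cko libraries carry floxed *Dhps* alleles together with *Lysm*-cre, which drives Cre recombinase from the *Lyz2* locus in granulocytes, monocytes and macrophages, and the 2 Dhps flox libraries are the floxed controls. *Dhps* encodes deoxyhypusine synthase, which uses spermidine to place hypusine on the translation factor eIF5A. The comparison asks how the transcriptome differs between these genotypes, and the libraries do not measure how far that step was lost. How many pups gave each library, and their sex, is not given in the sources used here, so p-values measure only the spread between these libraries, which may be technical.

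The TCA cycle runs in the mitochondrial matrix, where it oxidises the acetyl group of acetyl-CoA and hands electrons to the respiratory chain. Citrate synthase admits acetyl-CoA, isocitrate dehydrogenase 3 makes 2-oxoglutarate, succinyl-CoA ligase makes ATP or GTP, and fumarase and malate dehydrogenase return the carbon to oxaloacetate. Mature neutrophils are known for few mitochondria and for reliance on glycolysis, and the study followed mitochondrial function in PMN-MDSCs.

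The libraries were compared as a whole before the cycle genes were read. Between 10611 and 10729 genes reached 1 FPKM (fragments per kilobase of transcript, scaled to the mapped fragments of the library). Comparisons between genes depend on the transcript lengths used, which are not given in the sources used here. The depth estimated from the smallest FPKM steps was about 29960000 to 31980000 fragments per library, an approximate value because the steps did not return whole reads. Log2 levels of 10629 genes correlated at Pearson r = 0.987 within the Dhps cko pair, 0.979 within the Dhps flox pair and 0.978 to 0.983 across genotypes, a description across genes, which are not independent replicates. *Dhps* stood at 2.38 and 2.59 FPKM in Dhps cko and 3.57 and 3.11 FPKM in Dhps flox, so that both cko libraries were lower, at 74.4% of the flox mean (adjusted p = 0.63, limma with Benjamini-Hochberg adjustment). Most *Dhps* mRNA was thus still listed in Dhps cko, and the floxed part of the gene was not read separately. *Lyz2*, the gene that carries the Cre insertion, was at 34.5% of the flox mean (adjusted p = 0.083, limma).

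*Ly6g*, the surface marker used in the sort, was at 222.16 and 241.58 FPKM in Dhps cko and 194.95 and 184.8 FPKM in Dhps flox, and the summed FPKM of 12 neutrophil markers was 77530 and 79950 in Dhps cko and 77510 and 73000 in Dhps flox. Of the 12, 10 had a positive log2 difference (cko minus flox), and 4 had both cko libraries above and 0 below both flox libraries. All 5 markers of early neutrophils were positive, with a median of 0.55, 1 of them apart, and sums of 81.25 and 54.51 against 46.28 and 56.53 FPKM. Of 8 markers of cycling cells, 2 were positive and 6 negative, with 0 above and 2 below without overlap, and sums of 385.0 and 350.9 against 386.7 and 388.9 FPKM. Among the markers of other cells, 0 passed the adjusted threshold (limma with Benjamini-Hochberg adjustment), and their directions and sums were as follows. Both cko libraries were above both flox libraries for 6 of 8 B cell, 5 of 8 T cell, 8 of 10 monocyte and macrophage and 4 of 5 eosinophil markers, and none was below, beside 20.0% above and 16.0% below over all genes tested. Of 8 B cell markers, 8 had a positive log2 difference, with sums of 64.91 and 67.69 FPKM in Dhps cko against 41.47 and 50.82 FPKM in Dhps flox. The same held for 8 of 8 T cell markers (18.47 and 14.98 against 11.86 and 8.01 FPKM), for 9 of 10 monocyte and macrophage markers (377.9 and 374.9 against 311.5 and 312.8 FPKM) and for all 5 tested eosinophil markers (13.77 and 12.35 against 9.4 and 8.94 FPKM). A further eosinophil marker, *Prg3*, was too low to be tested and was listed at 0 in 3 libraries. All 10 erythroid markers had a positive difference, with 1 of them apart, and summed to 609.3 FPKM in one flox library and 917.9 FPKM in the other, with 736.1 and 882.2 FPKM in Dhps cko. Of 4 platelet markers, 2 were positive and 2 negative, with sums of 3.17 and 2.2 against 1.66 and 4.37 FPKM. Genes of the Y chromosome (*Uty*, *Kdm5d*, *Ddx3y* and *Eif2s3y*) summed to 7.07 and 8.07 FPKM in Dhps cko and 17.64 and 15.62 FPKM in Dhps flox, so the sex mix of the pups and the genotype cannot be told apart. The part of these values in the results for the cycle genes was not tested.

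None of the 9 cycle genes differed between the genotypes past the adjusted threshold. At an adjusted p under 0.05 (limma with Benjamini-Hochberg adjustment), 0 of 9 were called, beside 0.00557% of all 17948 genes tested (1 gene, the gene model *Gm20716*). At an unadjusted p under 0.05, again 0 of 9 were called, beside 4.72% of all genes higher and 2.28% lower in Dhps cko. Without Dhps flox replicate 2, 1 of 9 was called at that unadjusted threshold (*Mdh2*, log2 difference 0.23, adjusted p = 0.54, limma), as were 1608 of the 17948 genes, and 0 at the adjusted one. The log2 differences ran from -0.07 to 0.21 with a median of 0.04, and the median of all genes tested was 0.01. Of the 9, 6 were positive and 3 negative, and 52.2% of all genes were positive. The median of the 9 became -0.06 without Dhps flox replicate 2, a library in which 6 of them (*Idh3a*, *Idh3b*, *Suclg1*, *Suclg2*, *Sucla2* and *Fh1*) had their lowest value. In bulk RNA, fewer cells of a type and less RNA per cell cannot be told apart.

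The levels themselves spanned a wide range, as shown in the plot of FPKM by library. *Mdh2* was the highest, with a mean over the 4 libraries of 45.66 FPKM, and *Cs* (26.23) and *Idh3g* (20.09) came next. *Idh3b* (8.755), *Sucla2* (6.705), *Suclg1* (6.487) and *Fh1* (3.248) followed, and *Idh3a* (1.598) and *Suclg2* (0.8125 FPKM) were the lowest. Each gene stood apart from its neighbours in this order over all 4 libraries except *Sucla2* and *Suclg1*, whose ranges overlapped although *Sucla2* was the higher in 4 of 4 libraries. The 3 most abundant mRNAs held 75.0% to 78.5% of the summed FPKM of the 9. That sum was 122.0 and 121.5 FPKM in Dhps cko and 115.5 and 119.3 FPKM in Dhps flox.

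**Figure D1:**
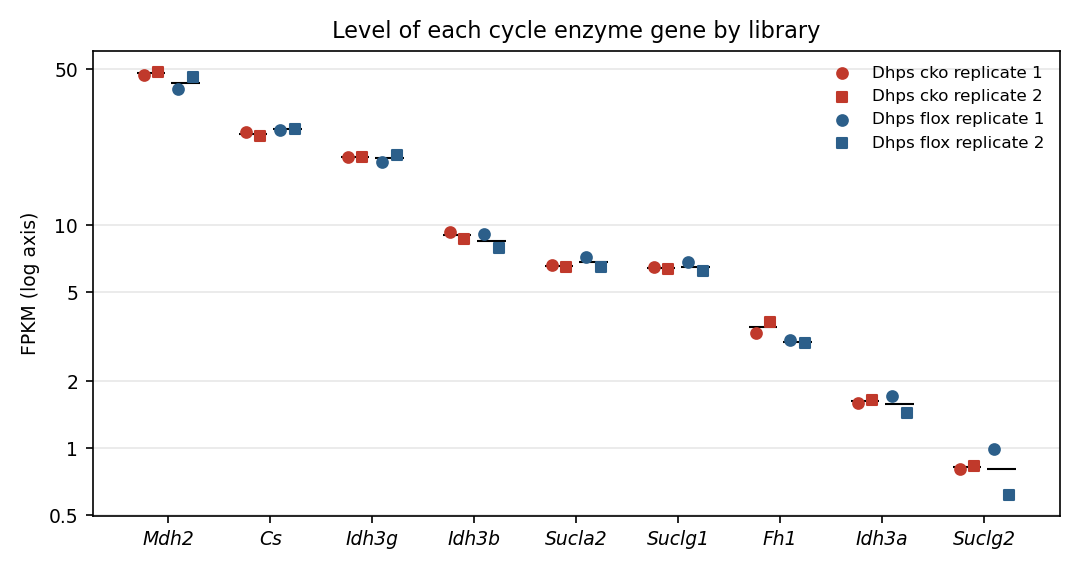
FPKM of the 9 cycle genes on a log axis, with a point for each of the 2 Dhps cko and 2 Dhps flox libraries and a black bar at each genotype mean. The genes keep their places from *Mdh2* at 40.79 to 48.62 FPKM down to *Suclg2* at 0.62 to 0.99 FPKM, and the genotypes lie close together within each gene.

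Citrate synthase condenses acetyl-CoA with oxaloacetate and is the entry step of the cycle. *Cs* (ENSMUSG00000005683, GRCm38 chr10:128337734-128362479, plus strand) was at 26.25 and 24.97 FPKM in Dhps cko and 26.61 and 27.09 FPKM in Dhps flox. Both cko libraries lay below both flox libraries, by a small margin. The means were 25.61 ± 0.91 and 26.85 ± 0.34 FPKM (SD, n = 2 each), and the log2 difference was -0.07 with an SE of 0.06 (adjusted p = 0.85, limma). The 95% interval of that difference put the cko level at 85.6% to 106% of flox. A citrate synthase-like gene, *Csl*, shares 1617 bases at 90.4% identity and was listed at 0.05 FPKM or less in every library.

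Isocitrate dehydrogenase 3 is the NAD-dependent enzyme of the cycle and is built from a catalytic alpha subunit and the beta and gamma subunits. The listed FPKM of the 3 subunits were far from equal, and the catalytic subunit had the least. Such a comparison between genes depends on the transcript lengths used. *Idh3a* (ENSMUSG00000032279, chr9:54586334-54604661, plus strand) was at 1.59 and 1.65 FPKM in Dhps cko and 1.71 and 1.44 FPKM in Dhps flox, and the cko values lay between the flox values. *Idh3b* (ENSMUSG00000027406, chr2:130279309-130284547, minus strand) was at 9.33 and 8.67 FPKM in Dhps cko and 9.12 and 7.9 FPKM in Dhps flox, again with overlapping groups. *Idh3g* (ENSMUSG00000002010, chrX:73778963-73786897, minus strand) was at 20.29 and 20.19 FPKM in Dhps cko and 19.25 and 20.65 FPKM in Dhps flox, and the cko pair once more lay within the flox pair. The log2 differences were 0.04 (SE 0.16) for *Idh3a*, 0.08 (SE 0.1) for *Idh3b* and 0.02 (SE 0.07) for *Idh3g*, with adjusted p-values of 0.98, 0.91 and 0.97 (limma). The intervals allow cko levels of 77.2% to 137%, 88.2% to 127% and 90.2% to 114% of flox.

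Ratios within a library compare the subunits without regard to the scaling between libraries. *Idh3b* exceeded *Idh3a* by 5.87 and 5.25 times in Dhps cko and by 5.33 and 5.49 times in Dhps flox. *Idh3g* exceeded *Idh3a* by 12.8 and 12.2 times in Dhps cko and by 11.3 and 14.3 times in Dhps flox. No difference between genotypes was detected in either ratio (exact two-sided permutation test, p = 1.0 for each), in a design whose smallest possible p is 0.33. The approximate number of fragments behind *Idh3a* was 111 to 135 per library, the second lowest of the 9.

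Succinyl-CoA ligase pairs a shared alpha subunit, encoded by *Suclg1*, with a beta subunit that sets the nucleotide: *Sucla2* encodes the ATP-forming and *Suclg2* the GTP-forming beta subunit. *Suclg1* (ENSMUSG00000052738, chr6:73248382-73276911, plus strand) was at 6.52 and 6.39 FPKM in Dhps cko and 6.81 and 6.23 FPKM in Dhps flox. *Sucla2* (ENSMUSG00000022110, chr14:73525319-73596142, plus strand) was at 6.61 and 6.52 FPKM in Dhps cko and 7.18 and 6.51 FPKM in Dhps flox. In both genes the cko values lay inside the span of the flox pair, and the log2 differences were -0.01 (SE 0.09) and -0.06 (SE 0.09), with adjusted p-values of 0.99 and 0.93 (limma). The intervals were 84.6% to 116% and 81.9% to 113% of flox.

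*Suclg2* (ENSMUSG00000061838, chr6:95473009-95718800, minus strand) was, by its listed FPKM, the least abundant and the least certain of the 9. It was at 0.81 and 0.83 FPKM in Dhps cko and 0.99 and 0.62 FPKM in Dhps flox, so that the flox libraries differed from each other by 0.6 on the log2 scale and enclosed the cko pair. The log2 difference was 0.05 with an SE of 0.27 (adjusted p = 0.98, limma), and the interval of 63.8% to 169% of flox is the only one of the 9 that does not exclude a 1.5-fold change. About 63 to 102 fragments per library lay behind these values, a counting error of 9.9% to 13%. Both rest on the approximate depth and on the length of the transcript with the longest coding sequence. Reads of this gene may also be divided with *Gm15163*, a processed pseudogene on the X chromosome that shares 1302 bases at 98.9% identity and was listed at 0.58 and 1.4 FPKM in Dhps cko and 0.94 and 0.36 FPKM in Dhps flox. With the FPKM of the pseudogene added, a choice made after the values were seen, the log2 difference was 0.33 (adjusted p = 0.9, limma). The pseudogene had a mean of 0.82 FPKM, so the lowest rank of *Suclg2* need not hold when it is added.

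The balance of the beta subunits lay with the ATP-forming one in every library. *Sucla2* exceeded *Suclg2* by 8.16 and 7.86 times in Dhps cko and by 7.25 and 10.5 times in Dhps flox, and with *Gm15163* counted as *Suclg2* by 4.76 and 2.92 times against 3.72 and 6.64 times. The beta subunits together stood at 1.14 and 1.15 times the alpha subunit in Dhps cko and at 1.2 and 1.14 times in Dhps flox. No difference between genotypes was detected in these ratios (exact two-sided permutation test, p = 1.0, 0.67 and 0.67 in that order, smallest possible p = 0.33).

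**Figure D2:**
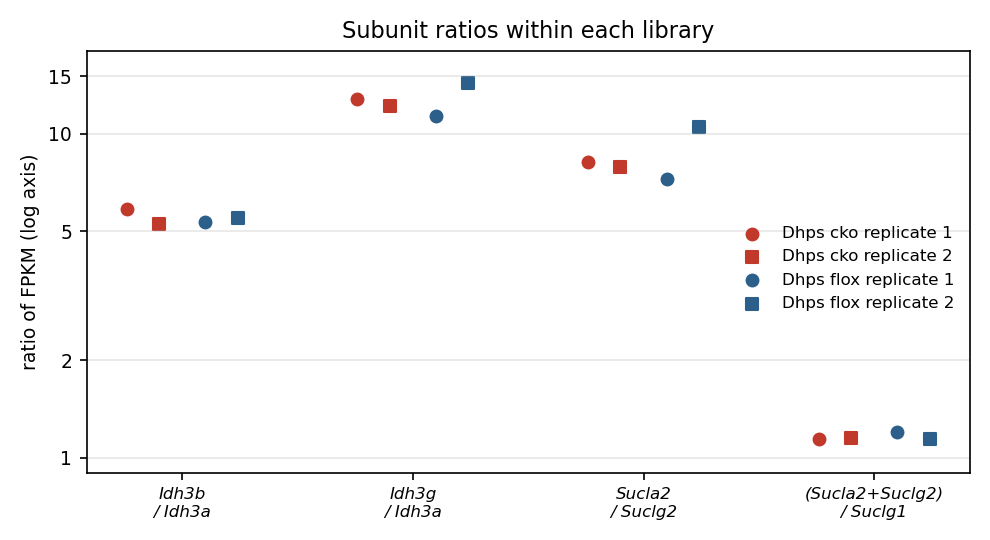
Ratios of FPKM between subunits of isocitrate dehydrogenase 3 and of succinyl-CoA ligase on a log axis, with a point for each library. The Dhps cko and Dhps flox points overlap in *Idh3b*/*Idh3a* (5.25 to 5.87), *Idh3g*/*Idh3a* (11.3 to 14.3) and *Sucla2*/*Suclg2* (7.25 to 10.5), and (*Sucla2*+*Suclg2*)/*Suclg1* stays between 1.14 and 1.2.

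Fumarase hydrates fumarate to malate. *Fh1* (ENSMUSG00000026526, chr1:175600374-175625635, minus strand) was at 3.29 and 3.69 FPKM in Dhps cko and 3.04 and 2.97 FPKM in Dhps flox. Both cko libraries lay above both flox libraries, and the cko mean was 116% of the flox mean. The log2 difference of 0.21 (SE 0.12) had the largest size among the 9 and did not pass the test (adjusted p = 0.78, limma), with an interval of 93.9% to 142% of flox. Without Dhps cko replicate 2 the log2 difference was 0.13.

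Mitochondrial malate dehydrogenase closes the cycle by oxidising malate to oxaloacetate. *Mdh2* (ENSMUSG00000019179, chr5:135778480-135790398, plus strand) was at 47.28 and 48.62 FPKM in Dhps cko and 40.79 and 45.93 FPKM in Dhps flox. Here too both cko libraries were above both flox libraries, with means of 47.95 ± 0.95 and 43.36 ± 3.6 FPKM (SD, n = 2 each). The log2 difference was 0.15 with an SE of 0.08 (adjusted p = 0.77, limma), and the interval ran from 96.7% to 127% of flox. It was 0.06 without Dhps flox replicate 1, the library with the lowest value. With about 1816 to 2207 fragments per library, the counting error of *Mdh2* was, by the same approximate depth, 2.1% to 2.3%, below the spread of the flox pair.

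Groups that did not overlap were thus found for 3 of the 9 genes, *Fh1* and *Mdh2* above and *Cs* below, beside 36.0% of all genes (20.0% above and 16.0% below). The share among the 9 is near that background and is not a result about the cycle. The gap between the flox libraries exceeded the difference between genotypes in 7 of the 9 genes, and the gap between the cko libraries did so in 3. The intervals excluded a 2-fold change for all 9 genes and a 1.5-fold change for 8. A p above the threshold does not show that levels were equal, and these intervals give the size of change that the 4 libraries allow.

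**Figure D3:**
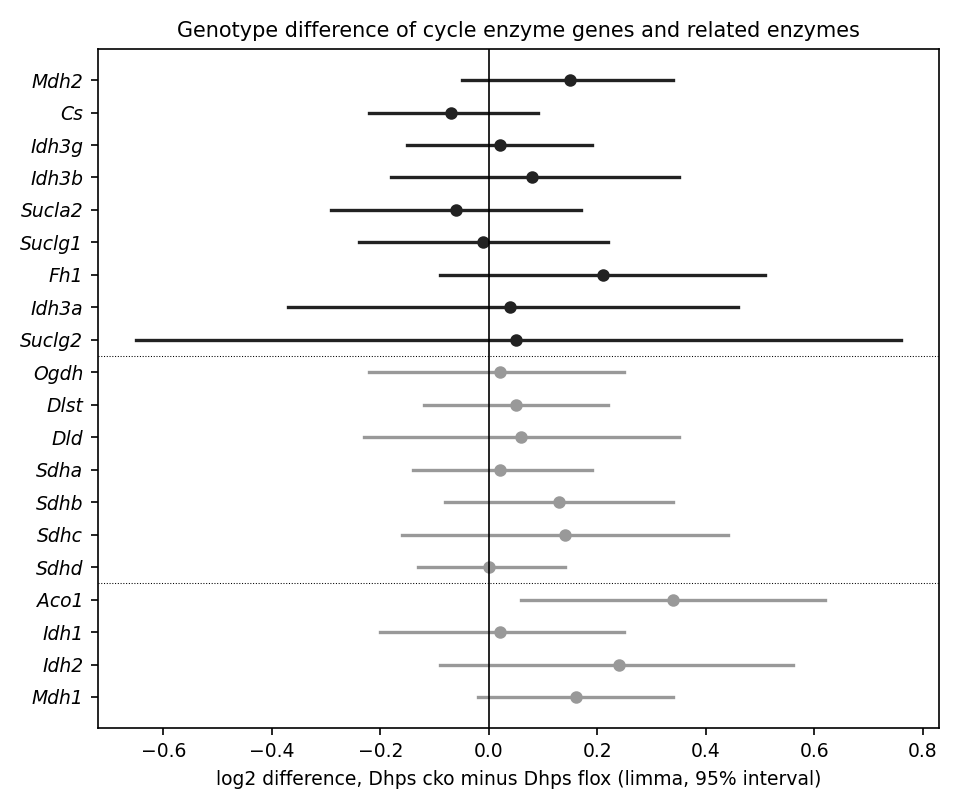
Log2 difference (Dhps cko minus Dhps flox, limma) with its 95% interval for the 9 cycle genes in black and for the other cycle enzymes and 4 cytosolic or NADP-dependent counterparts in grey. Every black interval spans 0, from -0.22 to 0.09 for *Cs* to -0.09 to 0.51 for *Fh1*, and *Suclg2* has the widest (-0.65 to 0.76).

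RefSeq promoter sequences (GRCm38.p6, 250 bases before and 50 after the start) were found for 8 of the 9 genes. *Idh3a* was not matched. The sequences of the genes with the highest and the lowest listed FPKM are given, and were picked after their motifs were seen. Capitals mark CTCGCGAG, the core of the element bound by BANP, in *Mdh2* (chr5:135778399-135778698, plus strand), and GGGCGG, the GC box of the SP factors, on either strand in *Suclg2* (chr6:95718797-95719096, minus strand).
Mdh2: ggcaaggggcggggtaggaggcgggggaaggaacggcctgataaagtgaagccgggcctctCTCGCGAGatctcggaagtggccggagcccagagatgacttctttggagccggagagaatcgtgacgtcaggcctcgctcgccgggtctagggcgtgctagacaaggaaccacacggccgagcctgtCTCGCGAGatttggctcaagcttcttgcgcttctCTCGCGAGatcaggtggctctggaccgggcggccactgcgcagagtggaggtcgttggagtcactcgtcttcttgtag
Suclg2: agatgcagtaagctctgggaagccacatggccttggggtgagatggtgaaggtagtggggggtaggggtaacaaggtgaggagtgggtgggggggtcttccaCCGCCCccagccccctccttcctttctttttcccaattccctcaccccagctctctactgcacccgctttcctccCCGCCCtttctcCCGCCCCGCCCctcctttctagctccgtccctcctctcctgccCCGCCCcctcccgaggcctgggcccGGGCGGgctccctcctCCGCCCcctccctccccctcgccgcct

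The *Mdh2* promoter held CTCGCGAG 3 times, beginning 189, 62 and 28 bases before the RefSeq start, where 0.919% of 32851 promoters held it at all. That start lies inside the *Mdh2* gene span given above, which begins at 135778480. The copies 62 and 28 bases before it lie inside that span too. The *Suclg2* promoter held 7 GC boxes, some of them overlapping, and had the highest GC content of the 8 at 67.7%, against a median of 52.7% over all promoters. GC boxes were found in 5 of the 8 promoters and in 35.7% of all. The ETS motif CCGGAAG was found in *Idh3b* and *Idh3g* and in 8.9% of all promoters, and AAGATGGCG, a YY1 motif, in *Idh3g* and in 1.4%. TGACGT, the core of the cyclic AMP response element, was found in *Fh1*, *Mdh2*, *Suclg1* and *Idh3g* and in 7.5% of all promoters, and CCAAT in 4 of the 8 and in 37.4%. No match was found for CGCATGCG, the core of the nuclear respiratory factor NRF1 site (1.9% of all promoters), for AAGGTCA, the site of oestrogen-related receptors (4.7% of all), or for CACGTG, the E-box of MYC (7.2% of all). All motifs were searched on both strands. A match is a description of these letters, not a site in use.

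**Figure D4:**
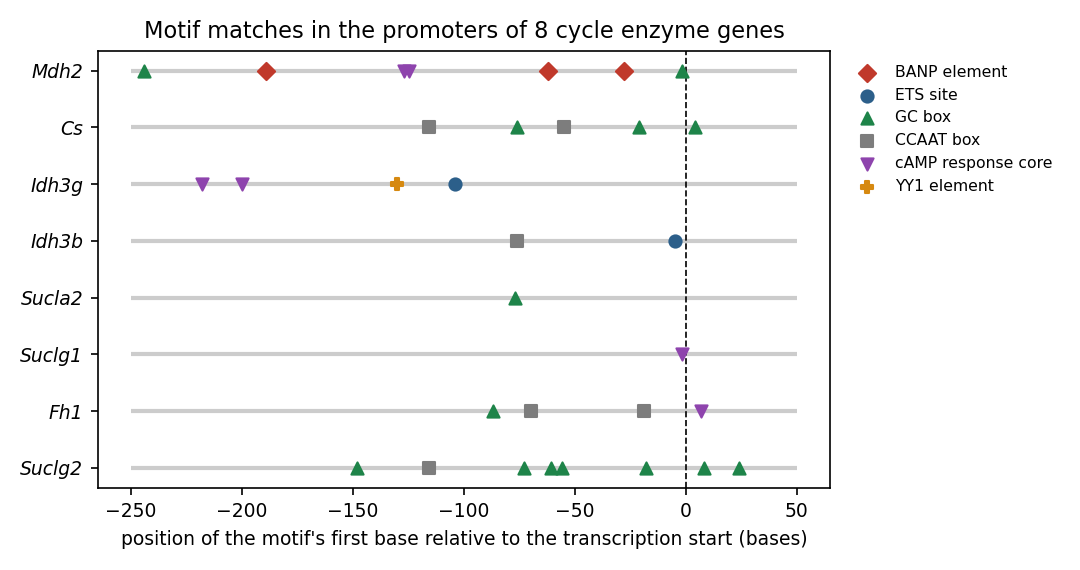
Positions of the searched motifs in the 8 RefSeq promoters, in bases from the transcription start (x axis, 250 before to 50 after), with a symbol for each motif at its leftmost base. *Mdh2* carries 3 BANP elements and *Suclg2* 7 GC boxes.

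The targeted step acts on translation, since hypusinated eIF5A is known to help ribosomes through runs of proline. The coding sequences were therefore searched for consecutive CCN codons, which encode proline. *Suclg1* held the longest run, cctcctcct, of 3 codons from codon 121. *Idh3a* and *Idh3g* held runs of 2, and the other 6 genes held no run above 1. A run of at least 3 was present in 1 of the 9 genes and in 20.0% of 21630 coding genes, and a run of at least 2 in 3 of 9 and in 66.9%. mRNA levels do not measure translation, so protein output of these genes was not analysed here. In separate proteomic data of drug-treated PMN-MDSCs, the paper lists SUCLG1 among the mitochondrial proteins lowered when DHPS was blocked. Whether the run in *Suclg1* has a part in that was not tested.

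Further enzymes of the cycle were read in the same fit. These, the subunits of succinate dehydrogenase and of the 2-oxoglutarate dehydrogenase complex, were more abundant, with a median over 7 tested genes of 23.05 FPKM (9.428 to 43.77) against 6.705 FPKM over the 9. Of the 7, 0 passed the adjusted threshold, 7 had a positive difference and the median was 0.05 (limma, lowest adjusted p = 0.8). *Ogdh*, the 2-oxoglutarate-binding subunit of its complex, was at 31.39 and 29.06 against 27.84 and 31.98 FPKM. The genotypes overlapped.

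The cytosolic and NADP-dependent counterparts carry out related reactions outside the NAD-dependent cycle. Of 4 tested, 0 passed the adjusted threshold and 1 had an unadjusted p under 0.05, and the median difference was 0.2. Over all genes, 4.72% were higher in Dhps cko at that unadjusted threshold and 20.0% had both cko libraries above both flox libraries, a pattern shown by 3 of the 4. The gene with an unadjusted p under 0.05 was *Aco1*, the cytosolic aconitase that doubles as an iron-regulatory protein, at 3.34 and 3.27 FPKM in Dhps cko and 2.56 and 2.61 FPKM in Dhps flox. Its cko mean was 128% of flox (log2 difference 0.34, adjusted p = 0.63, limma). *Mdh1*, the cytosolic malate dehydrogenase, was at 22.87 and 21.77 against 19.31 and 20.66 FPKM, and *Idh2*, the mitochondrial NADP-dependent enzyme, at 4.35 and 4.72 against 4.17 and 3.52 FPKM. The groups of both were apart, with cko at 112% and 118% of flox, and neither passed the test (adjusted p = 0.75 and 0.78, limma). *Idh1*, the cytosolic NADP-dependent enzyme, overlapped at 23.83 and 26.2 against 26.03 and 23.21 FPKM.

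Genes that feed or drain the cycle did not pass the adjusted threshold either. Of 13 genes of pyruvate entry, 3 had both cko libraries above and 5 below both flox libraries, with a median difference of 0.01, beside 20.0% above and 16.0% below over all genes tested. Of 14 tested genes of refilling reactions and shuttles, 2 were above and 1 below, with a median of 0.03. Of 6 genes of citrate export and acetyl-CoA production, 0 were above and 1 below, with a median of 0.08. *Acly*, the ATP-citrate lyase that turns exported citrate into cytosolic acetyl-CoA, was at 55.89 and 51.62 FPKM in Dhps cko and 52.57 and 57.38 FPKM in Dhps flox, and the groups overlapped (97.8% of flox, adjusted p = 0.96, limma).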

How the data were processed

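Total RNA of sorted splenic PMN-MDSCs was sequenced in 4 libraries. Reads were trimmed with Cutadapt, aligned with HISAT2 to mm10 and assembled with StringTie, per the submitters' processing notes, and FPKM per gene were deposited by the authors; the annotation release and strand setting are not given in the sources used here. FPKM scale with mapped fragments, so a few abundant genes (the top 10 held 29.9% to 31.4% of each FPKM sum) lower all others. Genotypes were compared on log2(FPKM + 0.1) in the 17948 genes averaging 0.1 FPKM or more, with limma 3.58.1 (R 4.3.3, mean-variance trend, Benjamini-Hochberg threshold 0.05), a scale that understates changes of low genes. The test was checked on simulated data. Gene coordinates came from GENCODE M21, and near copies from BLAST 2.17.0. Python 3.11.15, pandas 2.3.3, scipy 1.17.1 and matplotlib 3.10.9 were used otherwise. The 9 genes and all lists were chosen with earlier results of these data known. Named were the 9 genes, *Dhps* and *Lyz2*, preset neighbours (*Idh1*, *Idh2*, *Mdh1*, *Ogdh* and *Acly*), and up to 4 genes per related list with an unadjusted p under 0.05 and groups that did not overlap. Motifs, printed promoters, near copies and the Y-linked list were chosen after the data were seen. A further preset gene is not reported here.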

Additional observations from a re-analysis of the deposited data

How the results depend on the processing

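With 2 libraries per genotype, only large changes can pass, and no exact test can reach p = 0.05. None of the 14 alternatives called any of the 9 genes or any related gene at an adjusted p under 0.05 (limma). Over all genes the count was 1 as reported and 0 with a pseudocount of 0.01 (1216 at an unadjusted p under 0.05), 0 without a filter (1675), 4 with the filter raised to a 1 FPKM mean, which drops *Suclg2*, 2 with quantile normalization, 2 with robust eBayes and 0 with a replicate block (1082). It was 0 to 0 when each library was left out, where the lone library is assumed to vary like the others. The replicate numbers share no pairing that the labels state, deviations of same-numbered libraries correlated at r = -0.057 over 10629 genes; a block over these 4 libraries is balanced and cannot move a log2 difference, and the median of the 9 stays at 0.04 by construction. *Idh3g* turned to -0.002 under quantile normalization and to -0.01 with equal FPKM sums. Leaving out each library moved the median from -0.06 to 0.06, *Idh3a* from -0.07 to 0.16, *Idh3b* from -0.02 to 0.18, *Idh3g* from -0.03 to 0.07, *Suclg1* from -0.08 to 0.05, *Suclg2* from -0.24 to 0.35 and *Sucla2* from -0.13 to 0.01, all of which include both signs, while *Cs* stayed at -0.1 to -0.03, *Fh1* at 0.13 to 0.29 and *Mdh2* at 0.06 to 0.23. The causes were not tested. The order of the 9 levels was recomputed only with each library left out, where it did not change.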

Other observations

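Other mitochondrial genes were read in the same fit. Of 8 proteins often used as measures of mitochondrial mass, 4 had both Dhps cko libraries above both Dhps flox libraries and 0 below, beside 20.0% above and 16.0% below over all genes tested, and the median log2 difference was 0.08. *Cox4i1*, a subunit of cytochrome c oxidase, was at 56.39 and 52.95 FPKM in Dhps cko and 46.78 and 48.77 FPKM in Dhps flox (log2 difference 0.19, adjusted p = 0.63, limma). *Phb*, which encodes the inner membrane scaffold prohibitin, was at 2.78 and 2.35 against 1.83 and 2.01 FPKM (log2 difference 0.4, adjusted p = 0.7, limma). These were the 2 genes of that list with an unadjusted p under 0.05, both higher in Dhps cko, as were 4.72% of all genes at that threshold.

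Of 9 tested regulators of mitochondrial biogenesis, 2 were above and 2 below without overlap, with a median of 0.04. Of 13 mitochondrially encoded mRNAs, 12 had a positive difference and 2 had groups apart. Their summed level was 8899 and 9113 FPKM in Dhps cko and 9275 and 7795 FPKM in Dhps flox, so Dhps flox replicate 2 was the lowest, as it was for 6 of the 9 cycle genes. Over the 8 related lists together, 74 genes were tested, 0 passed the adjusted threshold, and 35.1% had groups that did not overlap, against 36.0% of all genes. Of these 74, 17 were above and 9 below without overlap, 56 had a positive difference (52.2% of all genes did), and 3 were higher and 0 lower at an unadjusted p under 0.05.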
